A study of Homo sapiens with 6 samples.

Results

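The TGF-β ligands, receptors and latency proteins were followed here as 10 genes. They were chosen by symbol in the platform annotation: the ligand genes TGFB1, TGFB2 and TGFB3, the receptor genes TGFBR1 and TGFBR2, the co-receptor genes TGFBR3 and ENG, and the latency protein genes LTBP1, LTBP2 and LTBP3. These 10 genes, of 19775 on the array, were read by 25 of its 54675 probe sets, and 20 of the 25 passed a filter on dim signals, which asked that the highest of the 4 group means exceed the median signal of the array set, 79.3. Every gene kept at least 1 probe set. TGFB3 lay above the filter in 3 of 4 groups and the representative probe sets of the other 9 genes did so in all 4.

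TGF-β is made as a precursor whose propeptide stays bound to the ligand dimer and holds it inactive. Latent TGF-β binding proteins, products of LTBP genes such as LTBP1 and LTBP3, link that latent complex to the extracellular matrix, from which integrins and proteases release the ligand. Free ligand binds the type II receptor TGFBR2, which phosphorylates the type I receptor ALK5, encoded by TGFBR1, and ALK5 in turn phosphorylates SMAD2 and SMAD3. Co-receptors present the ligand: betaglycan (TGFBR3), which favours TGF-β2, and endoglin (ENG), best known from endothelial cells. In carcinoma cells the pathway is known for both growth restraint and for the induction of matrix and invasion genes.

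SAS cells, a human cell line from an oral squamous cell carcinoma, were used throughout. They received an siRNA against CYLD (siCYLD), a deubiquitinase that restrains NF-κB signalling, or a control siRNA (siCtrl). After 2 days of culture they were kept for 48 h in serum-free medium with an ALK5 inhibitor, which the labels do not name further, or with DMSO. There was 1 array of siCYLD cells with inhibitor, 1 of siCtrl cells with inhibitor, 2 of siCYLD cells with DMSO and 2 of siCtrl cells with DMSO. Arrays with DMSO are called untreated. Whether duplicates came from separate cultures is not in the labels, so the spread between duplicate arrays is possibly technical. The p-values rest on that spread, moderated by the spread of other genes, and not on a known spread between cultures. For the inhibitor across both siRNAs, unequal inhibitor differences in the siRNA backgrounds also count as spread. The labels mention neither a second CYLD siRNA nor a rescue, so effects of the siRNA on other targets cannot be told apart from loss of CYLD.

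The labels of 2 arrays conflict: siCYLD replicate 1 by title is control siRNA by source name, and siCtrl replicate 2 by title is CYLD siRNA by source name. Titles were used to form the groups. Of 7 CYLD probe sets 4 passed the filter, and all 4 were called lower with the CYLD siRNA. The brightest, 213295_at, had signals of 278 and 230.4 in untreated siCYLD arrays and 411 and 499.5 in untreated siCtrl arrays, with 55.9% of the signal left (-0.80 ± 0.18, limma adjusted p = 0.00882 with probe sets as units). The others kept 58.6%, 39.8% and 19.6%. The one with the largest fall, 221903_s_at, had signals of 77.2 and 125 in untreated siCYLD arrays and 485 and 550 in untreated siCtrl arrays, and of 71.1 in the siCYLD inhibitor array and 421 in the siCtrl inhibitor array. Its difference between untreated groups was -2.21 ± 0.23 (log2 ± SE, limma adjusted p = 2.97e-05). In both probe sets each array titled siCYLD was below each array titled siCtrl, including both arrays with conflicting labels. Of the 10 listed squamous epithelial markers 7 had a probe set with 1 symbol and all 7 passed the filter, with a summed signal between 70952 and 85845. Most of that sum came from EPCAM, SFN, PERP and CDH1, each at 11742 or above on every array. In untreated arrays KRT5 had 900 to 1245 and DSG3 754 to 1261, and the basal keratin gene KRT14 had 62.3 to 148 over all arrays. The sum therefore does not show squamous identity. Of the markers of other cells some were near the floor, such as COL3A1 (fibroblasts) at 10.8 to 23.5, KDR (endothelium) at 1.95 to 25.5 and PTPRC (leukocytes) at 4.16 to 42.3. Others lay above the filter, such as COL1A1 at 284 to 399 and PDGFRB at 228 to 307 (fibroblasts), PECAM1 at 188 to 216 (endothelium) and CSF1R at up to 178 (leukocytes). The summed signal of 8 fibroblast markers, 4 of them above the filter, was 912 to 920.1 in siCYLD arrays and 759 to 870 in siCtrl arrays. That of 5 leukocyte markers, 3 above the filter, was 331 and 353 in untreated siCYLD arrays and 408 and 429 in untreated siCtrl arrays. The ACTB 3′/5′ ratio, a measure of RNA integrity and labelling, was 2.26, 2.48 and 2.38 in siCYLD arrays and 3.41, 3.21 and 3.67 in siCtrl arrays, with the inhibitor array given last. The same ratio for GAPDH did not separate the siRNAs. It was 1.80, 1.91 and 1.97 in siCYLD arrays and 2.14, 1.79 and 1.87 in siCtrl arrays, in the same order. The ACTB ratio and both marker sums moved with the siCYLD against siCtrl differences below, and their part in them was not tested.

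Knockdown of CYLD in untreated cells was compared first, asking which genes of the TGF-β system differed when it was reduced. TGFB1 and the latency protein genes LTBP1, LTBP2 and LTBP3 rose with the CYLD siRNA, together with the type I receptor gene TGFBR1 and the co-receptor gene ENG. TGFB2 was higher by its brightest probe set and lower by another. The rises ran from 1.45-fold for TGFBR1 to 1.97-fold for TGFB1 in mean signal. Of the 10 genes, 7 were called higher and the other 3 were not called (limma, adjusted p below 0.05 over 12935 genes), against 9.49% of all genes called higher and 11.8% called lower. The median log2 difference was 0.58 over the 10 genes and -0.04 over all genes. Differences are on the scale of log2(signal + 16.1), which understates changes of dim genes, and are given with standard errors. Fewer cells carrying a transcript and less of it per cell cannot be told apart in such bulk RNA.

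**Figure D1:**
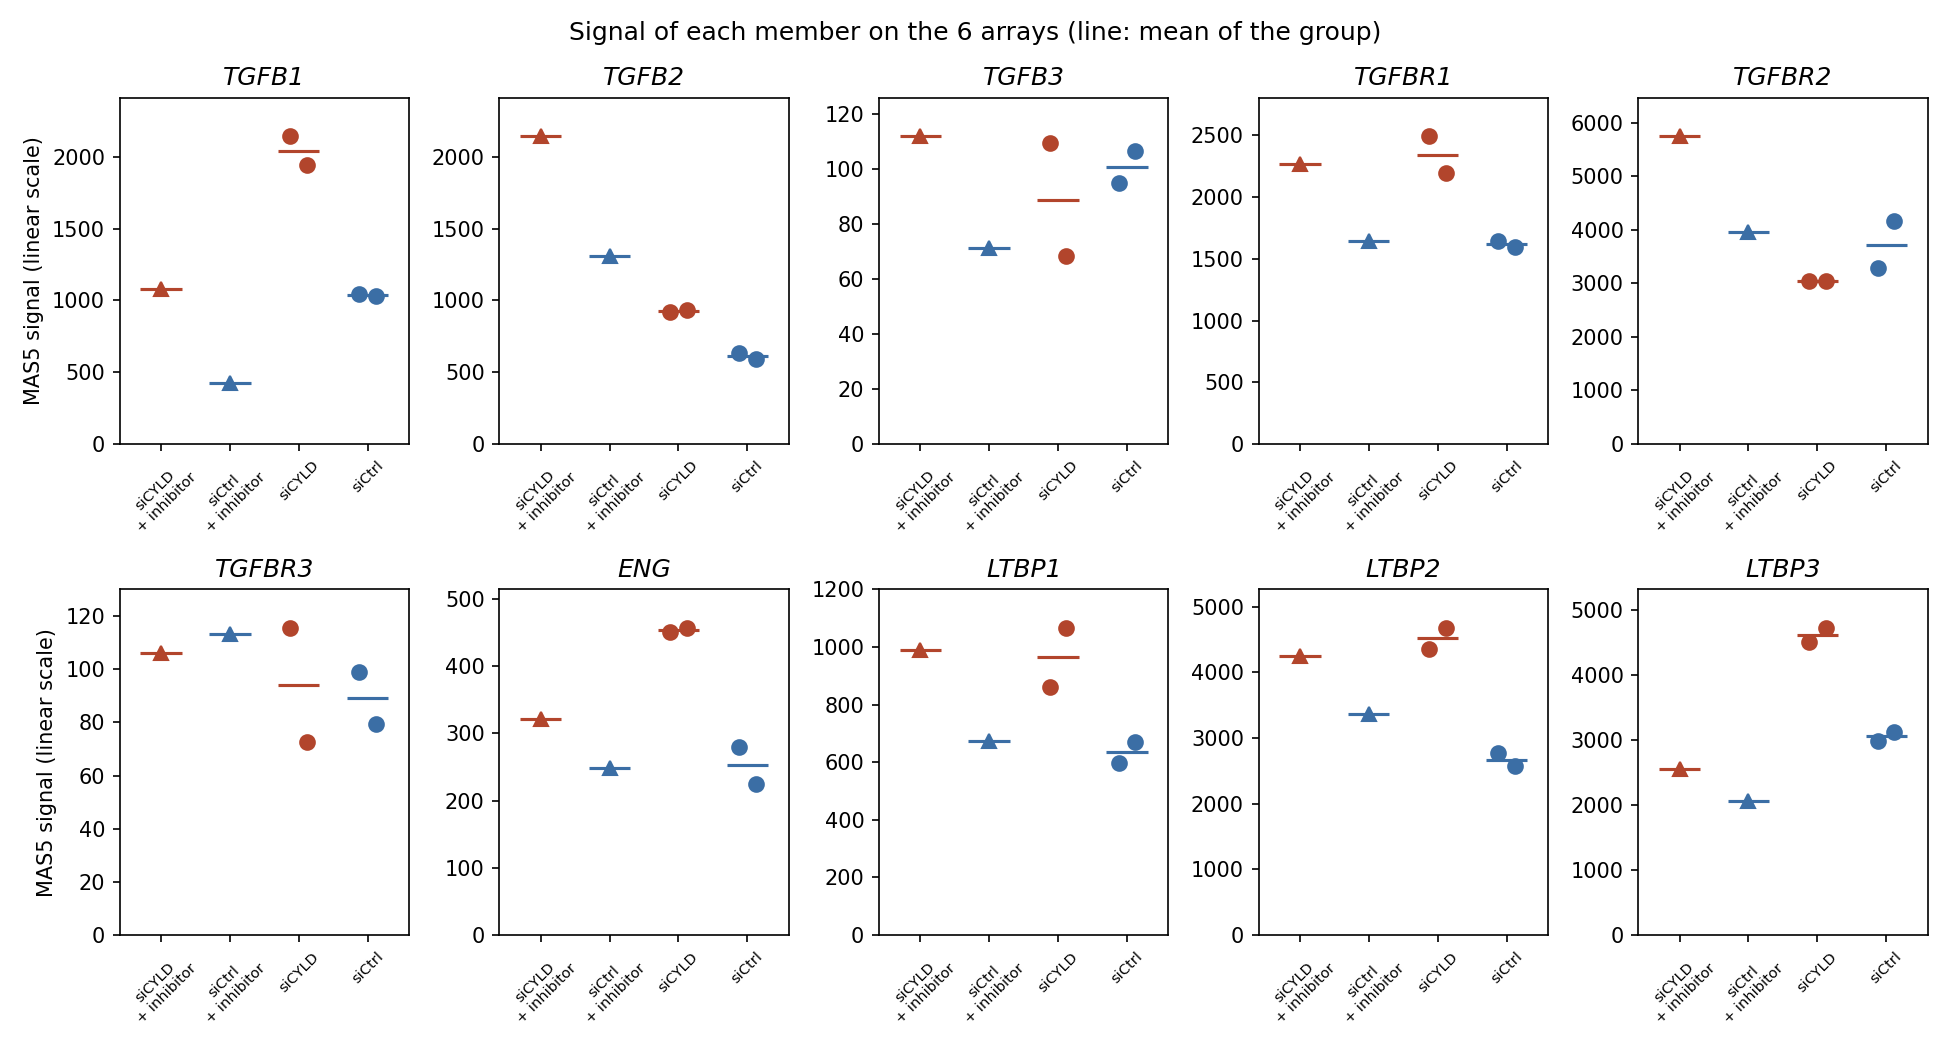
MAS5 signal (linear scale) of the probe set that represents each gene, on each of the 6 arrays, grouped by siRNA and inhibitor, with a line at the group mean. TGFB1 had 1944 to 2143 in untreated siCYLD arrays and 1034 to 1045 in untreated siCtrl arrays, and the siCYLD array with inhibitor, at 1082, stood near the untreated siCtrl arrays.

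Among the ligands, TGFB1, the most widely expressed TGF-β gene, had signals of 2143 and 1944 in untreated siCYLD arrays and 1045 and 1034 in untreated siCtrl arrays. The groups did not overlap, and the difference was 0.96 ± 0.12 (log2 ± SE, 2 arrays each, limma adjusted p = 6.95e-05). Every alternative setting that tested TGFB1 by title kept this call, with values of 0.89 to 1.10. The fit without both arrays with conflicting labels gave 1.10 (adjusted p = 0.00105). TGFB2 was read by 5 probe sets, of which 3 passed the filter. The brightest, 228121_at, had 923 and 932 in untreated siCYLD arrays and 636 and 595 in untreated siCtrl arrays, a difference of 0.58 ± 0.12 (limma adjusted p = 0.0036). The second, 209909_s_at, had 511 and 399 in siCYLD arrays and 662 and 712 in siCtrl arrays, a difference of -0.59 ± 0.15 (adjusted p = 0.0164 with probe sets as units, where 228121_at had 0.0057). A dimmer one, 220407_s_at, had 271 and 230.0 in siCYLD arrays and 309 and 303 in siCtrl arrays and was not called (-0.28 ± 0.17, adjusted p = 0.298). Both called TGFB2 probe sets therefore separated the groups without overlap, in opposite directions, and the mean of the 3 was -0.10 (adjusted p = 0.624). TGFB3 was dim: 209747_at had 109 and 68.2 in siCYLD arrays and 94.9 and 106 in siCtrl arrays, overlapping, with a difference of -0.18 and a 95% interval from -0.88 to 0.52.

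The proximal promoters of the 3 genes that were called in both siRNA backgrounds with the inhibitor, TGFB1, TGFB2 and LTBP3, are shown because their inhibitor differences, given below, ran in opposite directions. Each is the 250 bases before the most upstream start in RefSeq (GRCh38.p14), written 5′ to 3′ on the gene's strand. Capitals mark motif matches on either strand: the SMAD element core CAGAC, the AP-1 element TGANTCA, the GC box GGGCGG, the TATA box TATAAA, the CRE motif TGACG and the NF-κB consensus. All 10 genes were matched by symbol in the promoter table.
TGFB1, chr19:41353923-41354172, minus strand: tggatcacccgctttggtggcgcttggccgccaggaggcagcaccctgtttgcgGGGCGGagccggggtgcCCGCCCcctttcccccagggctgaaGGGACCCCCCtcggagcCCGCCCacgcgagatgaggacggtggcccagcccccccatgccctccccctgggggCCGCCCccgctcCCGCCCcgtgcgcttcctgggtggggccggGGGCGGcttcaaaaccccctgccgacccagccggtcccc
TGFB2, chr1:218345086-218345335, plus strand: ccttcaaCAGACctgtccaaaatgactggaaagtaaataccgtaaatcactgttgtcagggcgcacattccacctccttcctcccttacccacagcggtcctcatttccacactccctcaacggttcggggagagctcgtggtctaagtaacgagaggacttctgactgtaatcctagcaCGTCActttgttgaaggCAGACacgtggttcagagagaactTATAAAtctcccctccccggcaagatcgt
LTBP3, chr11:65558360-65558609, minus strand: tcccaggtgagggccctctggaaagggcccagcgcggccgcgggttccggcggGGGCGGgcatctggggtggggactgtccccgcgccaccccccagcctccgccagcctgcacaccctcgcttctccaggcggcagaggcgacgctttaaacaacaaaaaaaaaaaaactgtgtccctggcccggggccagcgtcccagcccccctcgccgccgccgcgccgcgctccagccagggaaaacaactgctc

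The TGFB1 window held 76.8% G and C, 21 CpG, 6 GC boxes and 1 match to the NF-κB consensus. The TGFB2 window held 50.4% G and C, 11 CpG, 2 SMAD element cores, 1 CRE motif and 1 TATA box, which began 29 bases before the start. The LTBP3 window held 70.4% G and C, 23 CpG and 1 GC box. No match of one motif overlapped a match of another in these windows. Of 27305 promoters of the same length, 1 per symbol, 37.9% held the SMAD element core, 6.57% the AP-1 element, 42.2% the GC box, 11.2% the TATA box, 21.6% the CRE motif and 9.58% the NF-κB consensus. Of the 10 genes, 3 held the SMAD element core, 0 the AP-1 element, 4 the GC box, 1 the TATA box, 2 the CRE motif and 2 the NF-κB consensus. A match is a description of these letters only.

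Of the signalling receptors, TGFBR1, which encodes the kinase that the inhibitor targets, rose with the CYLD siRNA. Its signals were 2492 and 2194 in untreated siCYLD arrays and 1647 and 1595 in untreated siCtrl arrays, without overlap, a difference of 0.52 ± 0.11 (limma adjusted p = 0.00425). It rested on 224793_s_at, since the other 2 probe sets of the gene were dim and not called (0.28 and 0.26). The mean of its 3 probe sets was 0.36 and not called (adjusted p = 0.198). The gene was also not called in a fit that ignored the intensity trend (adjusted p = 0.0665) and in the fit without both arrays with conflicting labels (0.44, adjusted p = 0.135). TGFBR2, the ligand-binding type II receptor, had 3049 and 3047 in siCYLD arrays and 3285 and 4163 in siCtrl arrays. The siCtrl arrays lay above both siCYLD arrays but far apart from each other, and the difference of -0.28 ± 0.11 was not called (adjusted p = 0.106, 95% interval from -0.53 to -0.03). Without siCtrl replicate 1 it was -0.45, a fit with a single untreated siCtrl array and so no spread between controls. The other way round, siCYLD replicate 2 and siCtrl replicate 1 taken as single arrays differed by -0.11. The fit without both arrays with conflicting labels changed the sign, as given below.

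ENG had 451 and 457 in untreated siCYLD arrays and 280.3 and 225 in untreated siCtrl arrays. The groups were separate, and the rise was 0.81 ± 0.17 (limma adjusted p = 0.00445). The second ENG probe set, 201808_s_at, was dim, with 81.1 and 123 in siCYLD arrays and 73.1 and 48.2 in siCtrl arrays, and was not called (0.62 ± 0.38, adjusted p = 0.306 with probe sets as units). The ENG call was lost for the mean of both probe sets (0.72, adjusted p = 0.0538) and in the fit without both arrays with conflicting labels (0.51, adjusted p = 0.188). TGFBR3 was dim and overlapping, with 116 and 72.8 in siCYLD arrays and 99.1 and 79.4 in siCtrl arrays, and its 95% interval ran from -0.64 to 0.73.

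All 3 latency protein genes were called higher. LTBP2, whose product belongs to the family but is known not to bind latent TGF-β, had 4356 and 4678 in untreated siCYLD arrays and 2770.2 and 2566 in untreated siCtrl arrays, a rise of 0.76 ± 0.10 (limma adjusted p = 0.000122). Its second probe set, 223690_at, had 3252 and 3447 in siCYLD arrays and 1905 and 1653 in siCtrl arrays and rose by 0.91 ± 0.11 (adjusted p = 0.000112 with probe sets as units). LTBP2 was the only one of the 10 genes with more than 1 probe set called in the same direction for the knockdown.

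LTBP3 had 4514 and 4729 in untreated siCYLD arrays and 2987 and 3130 in untreated siCtrl arrays by 219922_s_at, a rise of 0.59 ± 0.10 (adjusted p = 0.000782, limma). Its second probe set, 227308_x_at, had 1382 and 1286 in siCYLD arrays and 1158 and 1080.2 in siCtrl arrays and was not called (0.25 ± 0.12, adjusted p = 0.188 with probe sets as units). The mean of the 3 LTBP3 probe sets was 0.27 and not called (adjusted p = 0.135). LTBP1 had 863 and 1067 in siCYLD arrays and 598 and 671 in siCtrl arrays, a rise of 0.59 ± 0.14 (adjusted p = 0.00934). The second LTBP1 probe set, 202728_s_at, was not called (0.55, adjusted p = 0.182 with probe sets as units). By their representative probe sets the 3 latency protein genes rose by 0.59 to 0.76. There no untreated siCYLD array overlapped an untreated siCtrl array, as in 60.9% of all genes. The dim LTBP3 probe set 237144_at overlapped. The LTBP1 call was lost without siCYLD replicate 2 (0.44, adjusted p = 0.0844) and without the intensity trend (adjusted p = 0.0833). In the fit without both arrays with conflicting labels LTBP1 was called (0.68, adjusted p = 0.0292), and LTBP2 (0.54, adjusted p = 0.0597) and LTBP3 (0.48, adjusted p = 0.0967) were not.

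Over all 10 genes that smaller fit, which adds siRNA and inhibitor and weighs the inhibitor pair more, called 3 (TGFB1, TGFB2 and LTBP1). The same model on all 6 arrays called 7. Over all genes the smaller fit called 963 of 13191, and the model on all 6 arrays 2787 of 12935. With groups by source name, each of which mixes 1 array of either title, 0 of the 10 were called (limma, 0 at unadjusted p below 0.05). Because of that mixing the source-name fit does not test the knockdown as titled. Taken as single arrays, untreated siCYLD replicate 2 and siCtrl replicate 1, whose labels agree, differed by 0.89 in TGFB1, 0.54 in TGFB2, 0.41 in TGFBR1, 0.67 in ENG, 0.82 in LTBP1, 0.75 in LTBP2 and 0.66 in LTBP3. The arrays with conflicting labels, siCYLD replicate 1 and siCtrl replicate 2, differed by 1.04, 0.62, 0.64, 0.95, 0.35, 0.76 and 0.53 in the same genes and the same direction. Non-overlap of untreated arrays was seen for 8 of the 10 genes and for 60.9% of all genes.

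The same siRNA difference was then read in the inhibitor pair, which shares no array with the untreated comparison but has 1 array a group and therefore no replicate check. By their representative probe sets all 7 genes called higher in untreated cells were also higher in siCYLD in this pair. So were 89.2% of the 1227 genes called higher over the whole array. TGFB1 had 1082 with siCYLD and 425 with siCtrl, a difference of 1.31. LTBP1 had 990.2 with siCYLD and 675 with siCtrl (0.54), and TGFBR1 had 2266 and 1643 in the same order (0.46). ENG, LTBP2 and LTBP3 differed by 0.35, 0.33 and 0.30, against 0.81, 0.76 and 0.59 in untreated cells, and the interaction, given below, called none of them. TGFB2 differed by 0.71 in 228121_at and by 0.05 in 209909_s_at. The second LTBP3 probe set, 227308_x_at, went the other way (-0.16), with 671 in siCYLD and 752 in siCtrl. A dim TGFBR1 probe set, 236561_at, did so too (-0.12). The remaining probe sets of the 7 genes above the filter were higher. In all, 9 of the 10 representative probe sets were higher with siCYLD in this pair, against 49.2% of all genes. TGFBR3 was the exception at -0.08.

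**Figure D2:**
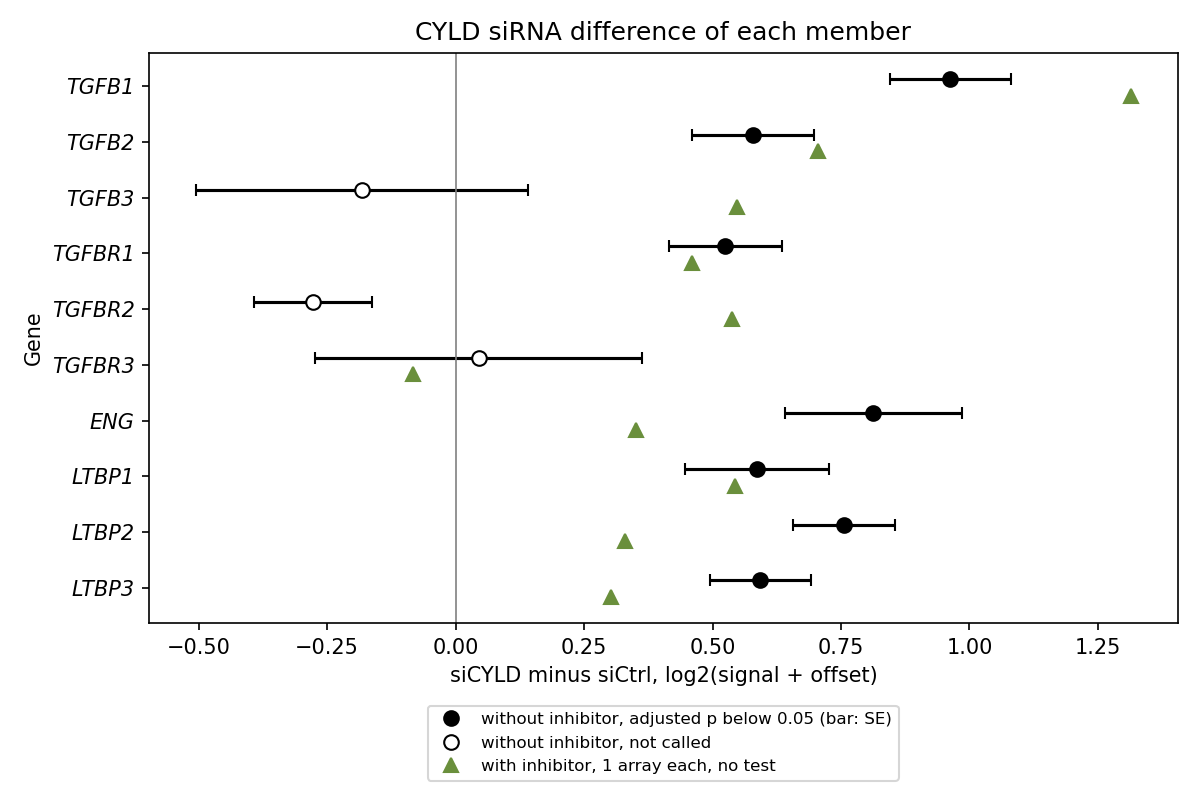
Difference between siCYLD and siCtrl arrays on the log2(signal + offset) scale for each gene: circles with SE bars for untreated cells (2 arrays each, filled where called), triangles for the inhibitor pair (1 array each, no test). The 7 called genes lay between 0.52 and 0.96 in untreated cells, and TGFBR2 stood at -0.28 without and 0.54 with the inhibitor.

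Inhibitor and untreated arrays were compared next, asking which genes of the system differ when the ALK5 kinase is blocked. TGFB1 and LTBP3 fell and TGFB2 rose with the inhibitor, in siCYLD and in siCtrl cells. TGFBR2 was called higher in siCYLD cells. Each background has 1 inhibitor array, so these tests assume that it varied like the duplicates of the untreated groups. TGFBR1, LTBP1, LTBP2, ENG, TGFB3 and TGFBR3 were not called in either. Across both siRNAs (2 inhibitor arrays, 4 untreated ones) 1 of the 10 genes was called higher and 2 lower, against 11.2% of all genes higher and 8.82% lower, with medians of 0.03 over the 10 genes and 0.01 over all genes. In siCYLD cells 2 were called higher and 2 lower, against 12.2% and 10.2% of all genes, and in siCtrl cells 1 higher and 2 lower, against 5.02% and 4.34%. With so few called of 10, the genes are described one by one. These comparisons use the same untreated arrays as the knockdown comparison.

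TGFB1 had 1082 with inhibitor and 2143 and 1944 without in siCYLD cells, and 425 with inhibitor and 1045 and 1034 without in siCtrl cells. The inhibitor array was lowest in each background, at 52.9% of the untreated mean signal in siCYLD cells and 40.9% in siCtrl cells. The difference was -0.91 ± 0.14 in siCYLD cells (limma adjusted p = 0.000703) and -1.26 ± 0.14 in siCtrl cells (adjusted p = 0.000198), and -1.08 ± 0.12 across both. Together the siRNA and the inhibitor left TGFB1 in siCYLD cells at 0.06 above untreated siCtrl cells on the log2 scale.

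TGFB2 had 2144 with inhibitor and 923 and 932 without in siCYLD cells, and 1309 with inhibitor and 636 and 595 without in siCtrl cells, by 228121_at. It rose by 1.20 ± 0.15 in siCYLD cells (adjusted p = 8.99e-05, limma) and by 1.07 ± 0.15 in siCtrl cells (adjusted p = 0.000714). The inhibitor array was highest in each background. The probe set that had gone the other way with the knockdown, 209909_s_at, rose as well: it had 1163 with inhibitor and 511 and 399 without in siCYLD cells, and 1120.2 with inhibitor and 662 and 712 without in siCtrl cells (1.33 ± 0.18 and 0.69 ± 0.18, adjusted p = 0.000397 and 0.0411 with probe sets as units). The direction of TGFB2 with the inhibitor was thus shared by both, and 220407_s_at rose in siCYLD cells (0.68 ± 0.21, adjusted p = 0.0421) and was not called in siCtrl cells (0.04 ± 0.21).

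LTBP3 had 2549.5 with inhibitor and 4514 and 4729 without in siCYLD cells, and 2063 with inhibitor and 2987 and 3130 without in siCtrl cells. It fell by 0.85 ± 0.12 on the log2 scale in siCYLD cells (adjusted p = 0.000279, limma) and by 0.56 ± 0.12 in siCtrl cells (adjusted p = 0.011), and with the arrays centred on their medians the siCtrl value was -0.46 and not called (adjusted p = 0.0835). The second probe set, 227308_x_at, fell by 0.97 ± 0.15 in siCYLD cells and by 0.56 ± 0.15 in siCtrl cells. A dim probe set of the gene, 237144_at, had values of 0.54 in siCYLD cells and 0.03 in siCtrl cells and was not called. TGFB1, TGFB2 and LTBP3 were the 3 genes called the same way in both backgrounds, as were 6.01% of all genes. For the mean of its 3 probe sets LTBP3 was -0.43 in siCYLD cells (adjusted p = 0.0646) and -0.37 in siCtrl cells (adjusted p = 0.165), called in neither, and -0.40 across both siRNAs (adjusted p = 0.0281). In siCtrl cells all 3 calls were lost without the intensity trend (adjusted p of 0.0575, 0.0647 and 0.133).

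**Figure D3:**
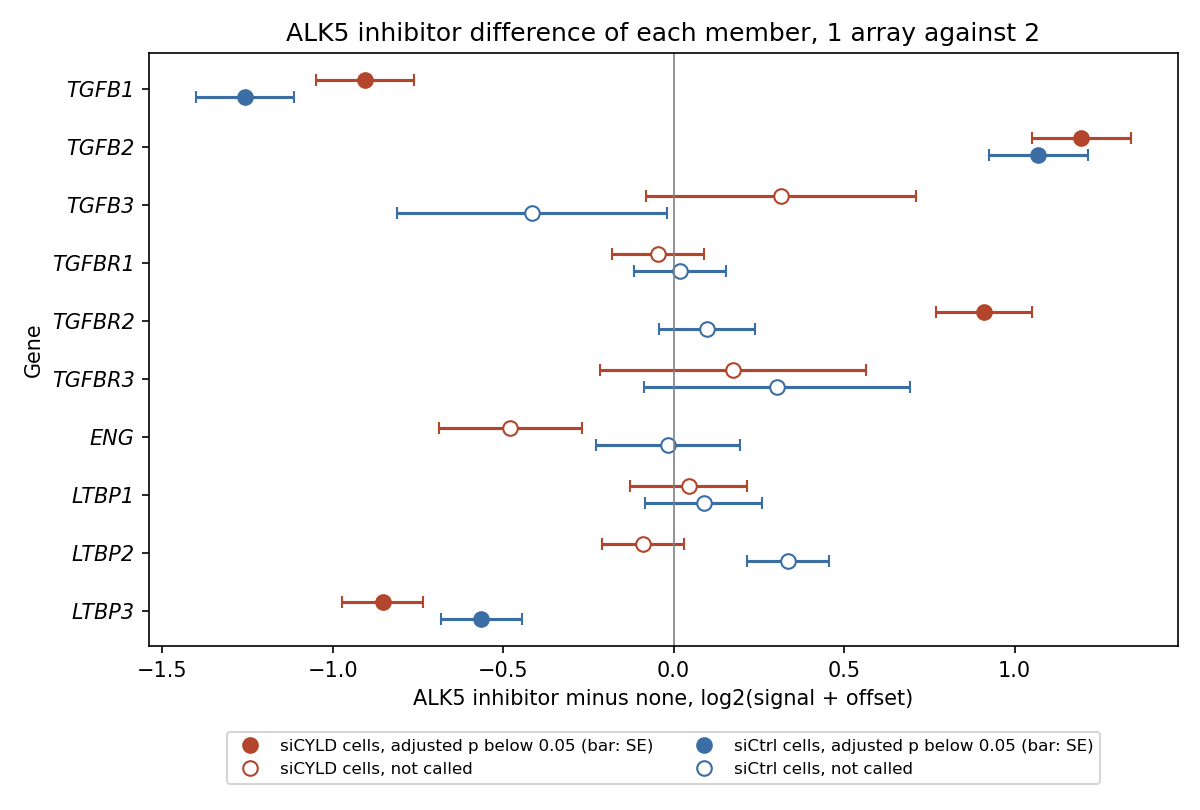
Difference between the inhibitor array and the 2 untreated arrays of the same siRNA on the log2(signal + offset) scale, with SE bars, in siCYLD cells (red) and siCtrl cells (blue), filled where called. TGFB1 and LTBP3 lay below 0 and TGFB2 above 0 in both backgrounds, and TGFBR2 was at 0.91 in siCYLD cells and 0.10 in siCtrl cells.

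TGFBR2 had 5747 with inhibitor and 3049 and 3047 without in siCYLD cells, and 3956 with inhibitor and 3285 and 4163 without in siCtrl cells. The siCYLD inhibitor array was the highest of all 6, while the siCtrl inhibitor array lay between its 2 untreated arrays. The difference in siCYLD cells, which rests on that 1 array, was 0.91 ± 0.14 (limma adjusted p = 0.000579) and was not called when the intensity trend was ignored (adjusted p = 0.0554). In siCtrl cells the difference was 0.10 ± 0.14 (adjusted p = 0.728). The difference between the 2 backgrounds, tested as an interaction, was 0.81 ± 0.20 and missed the threshold (adjusted p = 0.0666). The interaction was 0.98 without siCtrl replicate 1, 0.81 without siCYLD replicate 1 and 0.81 without siCYLD replicate 2. Each of those fits left a single untreated array in that group, without a spread, and so does not decide the interaction. Across both siRNAs the inhibitor difference was 0.50 ± 0.16 (adjusted p = 0.0514) and was not called. It was called without siCtrl replicate 2 (0.64, adjusted p = 0.0213), with median centring (0.58, adjusted p = 0.0362), with an offset of 64 (adjusted p = 0.0477), with the filter at the 75th percentile (adjusted p = 0.0451) and without both arrays with conflicting labels (0.59, adjusted p = 0.0455). A single probe set, 208944_at, carried TGFBR2, since the second was below the filter.

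The knockdown by inhibitor interaction called 0 of the 10 genes (limma), against 1.67% of all genes. At unadjusted p below 0.05 (limma) there were 2 of the 10, TGFBR2 and LTBP2, against 1767 of all 12935 genes. LTBP2 had 4239.8 with inhibitor and 4356 and 4678 without in siCYLD cells, and 3369 with inhibitor and 2770.2 and 2566 without in siCtrl cells. The siCtrl inhibitor array stood above its untreated arrays and the siCYLD one below them, with an interaction of -0.43 ± 0.17 (adjusted p = 0.279). ENG had 321 with inhibitor and 451 and 457 without in siCYLD cells, and 248 with inhibitor and 280.3 and 225 without in siCtrl cells. Its difference was -0.48 ± 0.21 in siCYLD cells (adjusted p = 0.124) and -0.02 ± 0.21 in siCtrl cells, neither being called. The endothelial cadherin gene CDH5 had 462 and 587 in the siCYLD and siCtrl inhibitor arrays and 5.83 to 63.0 in the 4 untreated arrays. The summed signal of 7 endothelial markers, 3 above the filter, was 905 and 992 with inhibitor and 322 to 398 without, KDR, EMCN, CLDN5 and TEK being at 38.1 or below on all 6 arrays. The squamous keratin gene KRT5 had 5595 and 12525 in the siCYLD and siCtrl inhibitor arrays and 900.5 to 1245 in untreated arrays. The summed signal of the leukocyte markers was 269 and 280.1 in the siCYLD and siCtrl inhibitor arrays, below the untreated values given above. The part of these markers in the inhibitor differences was not tested.

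The probe sets that represent TGFBR1 and LTBP1 had intervals on both sides of 0 with the inhibitor. TGFBR1 had 2266 with inhibitor and 2492 and 2194 without in siCYLD cells, and 1643 with inhibitor and 1647 and 1595 without in siCtrl cells. In each background the inhibitor array lay between the untreated arrays, and the 95% interval across both siRNAs ran from -0.24 to 0.21. LTBP1 had 990.2 with inhibitor and 863 and 1067 without in siCYLD cells, and 675 with inhibitor and 598 and 671 without in siCtrl cells, with an interval from -0.21 to 0.35. Its second probe set, 202728_s_at, had 215 with inhibitor and 160.0 and 118 without in siCYLD cells, and 158 with inhibitor and 75.9 and 105 without in siCtrl cells. There the inhibitor array was highest in siCYLD and in siCtrl cells, at 0.65 across both (95% interval from 0.16 to 1.15), and was not called (adjusted p = 0.0732 with probe sets as units). TGFB3 had 112 and 71.4 in the siCYLD and siCtrl inhibitor arrays, and TGFBR3 had 106 and 113. Both genes were close to the filter at a signal of 79.3, and their intervals across both siRNAs, from -0.71 to 0.61 and from -0.37 to 0.85, were wide.

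Read by probe sets, 8 of the 20 that passed the filter were called higher and 1 lower with the knockdown, against 7.7% and 9.06% of 24537 probe sets. Taking the mean of the kept probe sets for each gene left 3 of the 10 genes called, against 2162 of all 12935 genes. Leaving out probe sets that can match several transcripts (_x_at and _s_at) left 2 called of 7 tested, against 2024 of 10221 genes. TGFB1, ENG and LTBP1 then had no probe set above the filter. Across both siRNAs the inhibitor raised 2, both of TGFB2, and lowered 3, of TGFB1 and LTBP3, against 7.79% and 7.45%. In siCYLD cells 4 rose and 3 fell, against 8.37% and 7.98%, and in siCtrl cells 2 rose and 3 fell, against 3.01% and 3.03%. Probe sets below the filter were not tested. Among them 203084_at of TGFB1 had 64.4 and 53.4 in untreated siCYLD arrays and 64.2 and 35.5 in untreated siCtrl arrays, and 1555540_at of TGFB3 had 3.33 and 10.4 in siCYLD arrays and 43.2 and 48.1 in siCtrl arrays. The files do not say where in a transcript each probe set lies, so the TGFB2 disagreement could not be assigned to a transcript form.

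**Figure D4:**
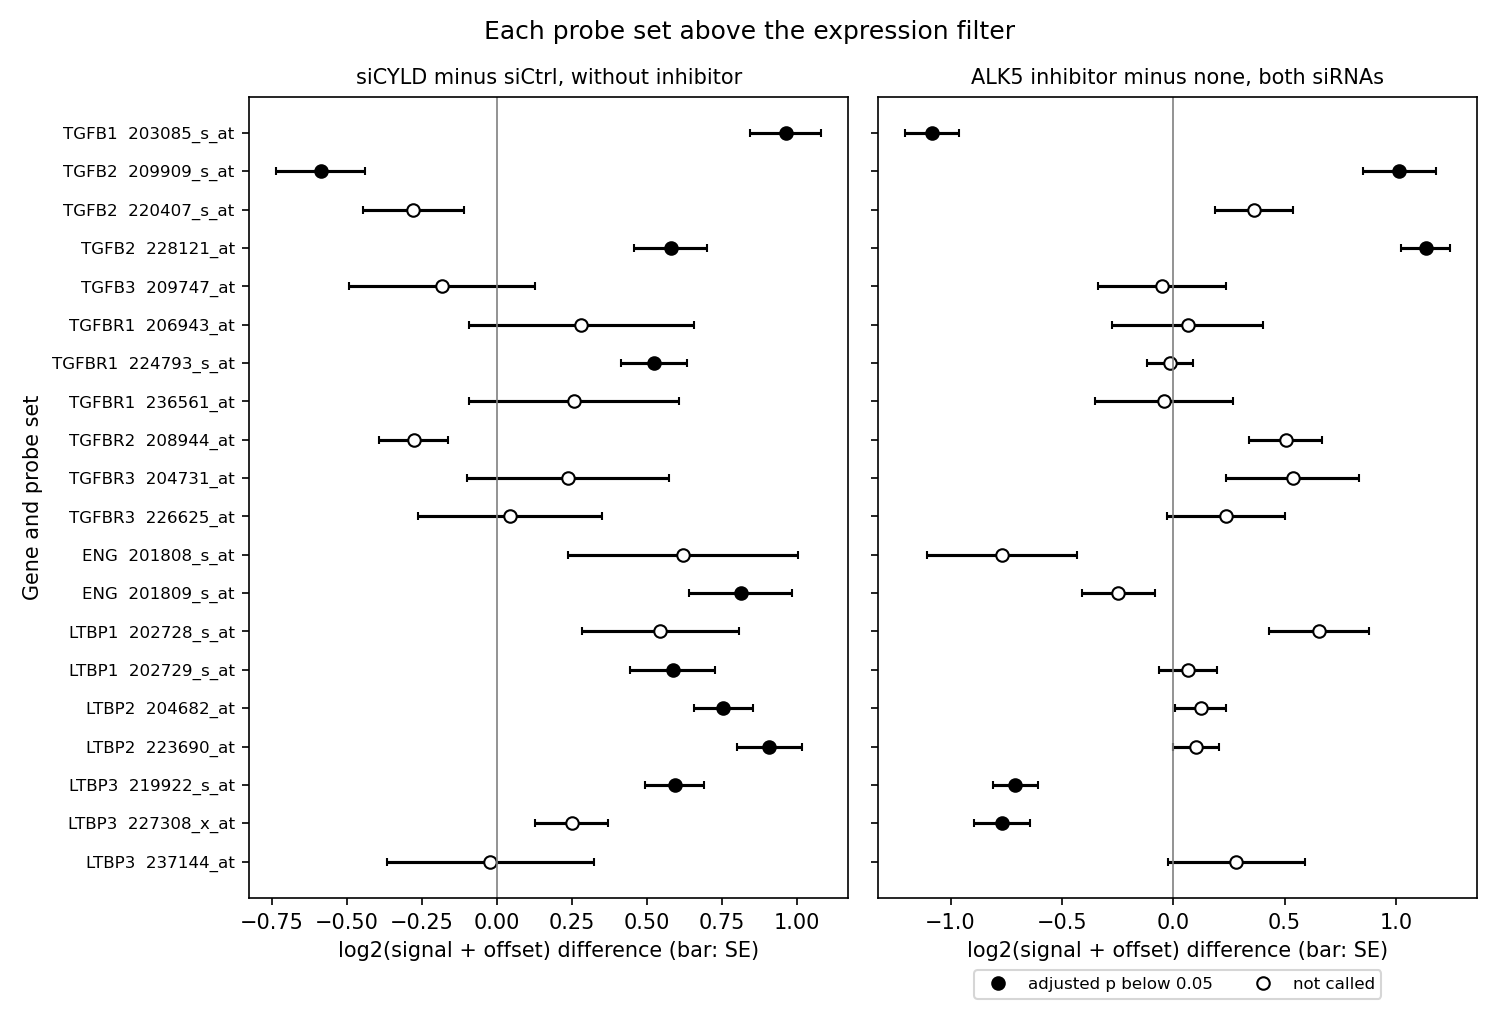
Differences with SE bars on the log2(signal + offset) scale for the 20 probe sets above the filter, left for siCYLD minus siCtrl in untreated cells and right for inhibitor minus none across both siRNAs, filled where called with probe sets as units. TGFB2 209909_s_at stood at -0.59 and 228121_at at 0.58 on the left, and at 1.01 and 1.13 on the right.

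Other genes of the pathway were counted in lists that leave the 10 genes out. Over all genes the knockdown called 9.49% higher and 11.8% lower and the inhibitor across both siRNAs 11.2% higher and 8.82% lower, and in the shorter lists the counts are too small to set against these shares. Of 14 tested partners and activators of the latent complex, 8 rose and 1 fell with the knockdown (median 0.51, against -0.04 over all genes). MMP9, a gelatinase, rose by 2.75 ± 0.18, the plasminogen activator gene PLAU by 1.47 ± 0.09, the latency protein gene LTBP4 by 1.10 ± 0.23 and the gelatinase gene MMP2 by 0.92 ± 0.13. With the inhibitor 3 rose and 5 fell across both siRNAs: MMP9 (-1.81 ± 0.35) and the crosslinking enzyme gene TGM2 (-0.82 ± 0.10) fell, and ITGB8 (0.92 ± 0.09), an integrin chain that activates TGF-β, and PLAU (0.75 ± 0.10) rose. The integrin gene ITGAV rose by 0.84 with the knockdown and fell by 0.52 with the inhibitor across both siRNAs. For some genes these averages join unequal backgrounds. The inhibitor value of MMP9 was -0.76 with the control siRNA and -2.85 with the CYLD siRNA. In the same order ITGAV had -0.18, not called, and -0.86. The interaction was called for MMP9 and not for ITGAV. TGM2 (-0.92 and -0.72), ITGB8 (0.83 and 1.01) and PLAU (0.96 and 0.54) went the same way with either siRNA.

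Of 7 other type I and type II receptor genes, 2 rose with the knockdown and 5 were not called: BMPR2 by 0.46 ± 0.13 and ACVR1 by 0.33 ± 0.10. The same 2 fell with the inhibitor across both siRNAs, by 0.61 ± 0.15 and 0.55 ± 0.10. BMPR2 changed by -0.31, not called, with the control siRNA and by -0.91 with the CYLD siRNA. ACVR1 changed by -0.50 and -0.59 in that order. The interaction was called for neither. Of 17 accessory and turnover proteins, 8 rose and 2 fell with the knockdown, with PMEPA1 (3.68 ± 0.12), whose product holds back SMAD2 and SMAD3, the endocytic adaptor gene DAB2 (1.23 ± 0.23) and the inhibitory SMAD7 (0.80 ± 0.14) higher and the caveolin gene CAV1 (-0.93 ± 0.08) lower. With the inhibitor 5 fell across both siRNAs and 12 were not called. The falls included PMEPA1 (-2.50 ± 0.41), VASN (-1.02 ± 0.12), whose product traps TGF-β, DAB2 (-0.95 ± 0.22) and SMAD7 (-0.80 ± 0.24). SMAD7 had -0.11, not called, with the control siRNA and -1.49 with the CYLD siRNA. In that order PMEPA1 had -1.20 and -3.80, DAB2 -0.67, not called, and -1.23, and VASN -0.86 and -1.18. The interaction was called for PMEPA1 and SMAD7, so their averages describe neither background. It was not called for DAB2 and VASN. Of 9 SMAD mediators and repressors, 2 rose and 1 fell with the knockdown (SMAD3 0.74 ± 0.09, SKIL 0.63 ± 0.11, SMAD4 -0.45 ± 0.11), and 1 rose and 3 fell with the inhibitor, the repressor gene SKIL by 1.64 ± 0.13.

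Of 14 direct TGF-β targets, 9 rose and 1 fell with the knockdown (median 0.92). The fibronectin gene FN1 (6.57 ± 0.13), PMEPA1 and the collagen gene COL7A1 (1.92 ± 0.11) were higher and the metalloprotease inhibitor gene TIMP3 (-1.88 ± 0.11) was lower. The inhibitor differences of these targets depended on the siRNA, with 7 of the 14 interactions called. In siCYLD cells 2 rose and 9 fell (median -1.68), and in siCtrl cells 4 rose and 4 fell (median -0.13), so the 2 that rose and 8 that fell across both siRNAs describe neither background. FN1 was -5.16 ± 0.16 in siCYLD cells and -0.49 ± 0.16, not called, in siCtrl cells (interaction -4.67 ± 0.23, adjusted p = 4.01e-07, limma). TGFBI, a matrix protein gene, fell by 2.14 ± 0.11 in siCYLD cells and rose by 0.74 ± 0.11 in siCtrl cells. IL11 fell in both, at -2.77 ± 0.20 in siCYLD cells and -2.54 ± 0.20 in siCtrl cells. TIMP3 rose in both, by 2.93 ± 0.13 and 1.05 ± 0.13 in that order. HMGA2 did so too, by 1.30 ± 0.14 and 1.45 ± 0.14. The target list shares PMEPA1, SMAD7 and SKIL with the lists before it. These counts describe the lists and were not tested against other genes.

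**Figure D5:**
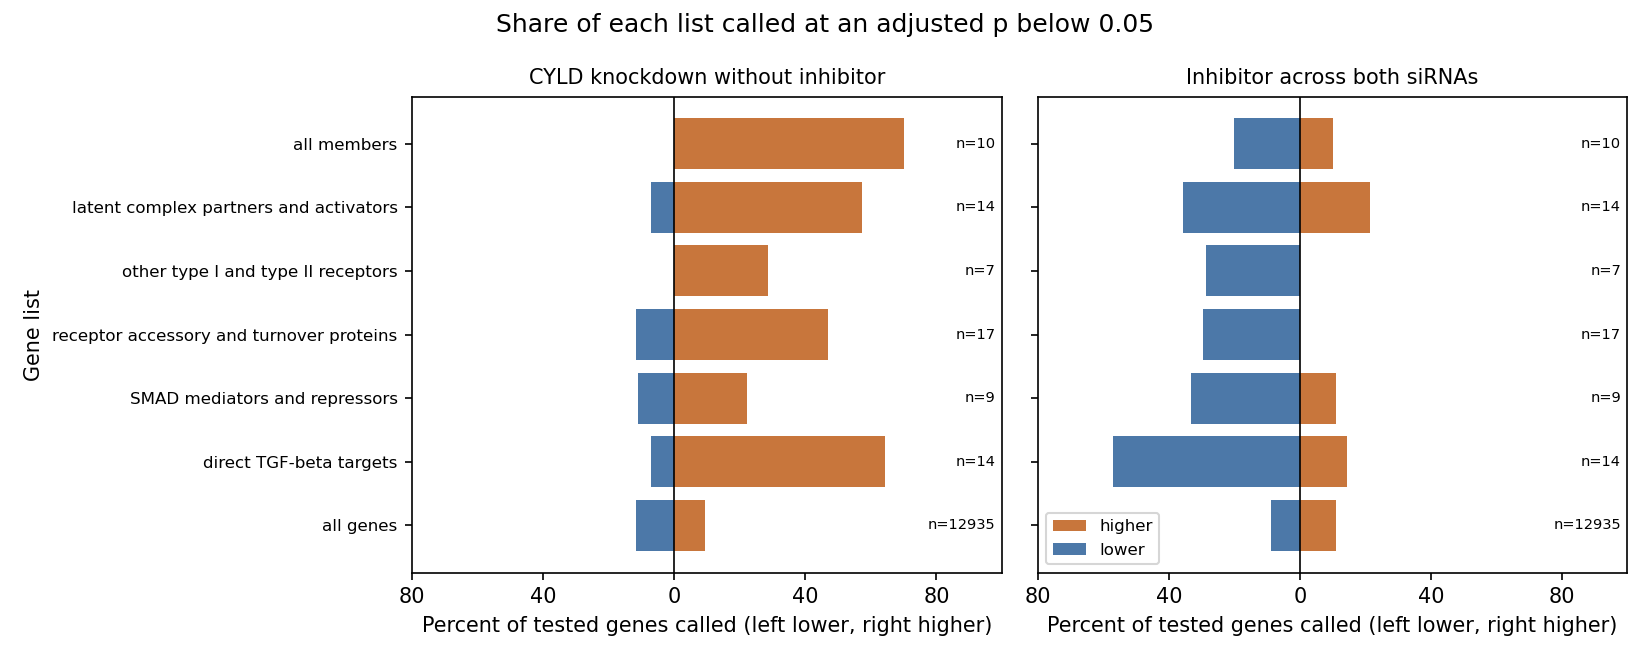
Percent of the tested genes of each list called higher (right of 0) or lower (left of 0), with the number tested, for the knockdown in untreated cells (left) and the inhibitor across both siRNAs (right). Of the 10 genes 7 were called higher with the knockdown. Of 14 direct targets 8 were called lower with the inhibitor across both siRNAs, a count that describes neither background. In siCYLD cells 2 targets were called higher and 9 lower, and in siCtrl cells 4 higher and 4 lower.

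Genes outside the family whose log2 values followed a called member most closely over the 6 arrays were listed by Pearson correlation, as a description without a test, since the 6 arrays hold only 4 conditions and duplicates share them. TGFB1 was followed by PTPN3 (0.999), IFI27L1 and SYNPO (0.997 each). TGFB2 by 228121_at was followed by VEGFA, SLC25A30 (0.998 each) and IRX3 (0.996). SLC25A30, for example, had 396 and 259 in the siCYLD and siCtrl inhibitor arrays, 185 and 199 in untreated siCYLD arrays and 138 and 137 in untreated siCtrl arrays. LTBP3 was followed by TMEM263 (0.997), HRG and ADTRP (0.995 each), TGFBR1 by CIZ1 (0.998), FARP1 (0.996) and TMEM87B (0.991), and ENG by USP4 (0.997), STYK1 (0.996) and RILP (0.995). LTBP1 was followed by CD151 (0.998), FUT1 (0.994) and ZGPAT (0.993), and LTBP2 by STX1A, TMEM44 (0.992 each) and DUSP4 (0.991). Within the family TGFB1 and LTBP3 correlated at 0.94, LTBP1 and LTBP2 at 0.91, and TGFB1 and TGFB2 at -0.22.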

How the data were processed

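The authors deposited a single intensity for each probe set on each array. Per the submitters' processing notes it comes from MAS5, whose version is not given in the sources used here. Per the labels' protocols, total RNA was taken on RNeasy columns and 2 µg went into biotin labelling. All arrays had a trimmed mean (2% off each tail) of 500.1, and nothing was rescaled. Arrays have no read depth, and their number limits the precision. For every test, 16.1 (the 20th percentile of signals) was added before taking log2. The platform annotation gave 1 symbol for 41091 probe sets, and 24537 of these had a highest group mean above the median signal of 79.3. The brightest of them per gene on average stood for the gene (12935 genes). Fits used limma 3.58.1 in R 4.3.3 with an intensity trend, two-sided, with Benjamini-Hochberg adjustment over all genes. A group-means model (2 residual and 10.9 prior degrees of freedom) gave the knockdown, both single-siRNA inhibitor differences and the interaction. An additive model (3 and 7.98) gave the inhibitor difference over both siRNAs. Single inhibitor arrays were assumed to vary like the duplicates. The fit was tested on simulated data. Deviations of same-numbered arrays correlated at 0.0447, so replicate numbers were not taken as pairs. Named genes were the 10 genes of the family, CYLD, the 3 genes most correlated with each called one, up to 4 called genes with the largest differences per list, and markers. ITGAV was named after its values were seen. Genes and lists were chosen with earlier results of these data known. Promoter windows came from RefSeq (GRCh38.p14).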

Additional observations from a re-analysis of the deposited data

How the results depend on the processing

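The 7 calls of the knockdown became 3 for the mean of kept probe sets, with 2162 of 12935 genes called. Without probe sets that can match several transcripts (_x_at and _s_at) 2 of 7 tested were called, and 2024 of 10221 genes. TGFB1, ENG and LTBP1 were then not tested. In the additive model without both arrays with conflicting labels 3 were called, and 963 of 13191 genes. At unadjusted p below 0.05 (limma) that fit had 7, and 2704 of all genes. With groups by source name 0 were called, and 0 were at unadjusted p below 0.05 (limma). The fit with a replicate block gave 8, TGFBR2 being added at -0.28 (limma adjusted p = 0.0312). Over all genes that fit also called more, 3716 of 12339 against 2757 of 12935 as reported. Without _x_at and _s_at probe sets the inhibitor called, of the same 7, 1 gene across both siRNAs, 2 in siCYLD cells and 1 in siCtrl cells. In the same order it called 1787, 2026 and 869 of 10221 genes. Without the intensity trend the inhibitor called 0 in siCtrl cells, against 35 of 12935 genes. At unadjusted p below 0.05 (limma) there were 3, against 2562 of all genes. The interaction called 1, TGFBR2, with the filter at the 75th percentile (0.81, limma adjusted p = 0.0466), against 266 of 8514 genes. With groups by title, TGFB1 kept its direction under each alternative that tested it in the 5 comparisons. Groups by source name mix arrays of either title, so their count of 0 does not test the knockdown as titled.

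Some values changed sign. With the mean of kept probe sets TGFB2 was -0.10 for the knockdown, and TGFBR1 was 0.0034 with the inhibitor across both siRNAs, 0.049 in siCYLD cells, -0.043 in siCtrl cells and 0.092 for the interaction. Without _x_at and _s_at probe sets LTBP3, then read by the dim 237144_at, was -0.021 for the knockdown, 0.28 with the inhibitor across both siRNAs, 0.54 in siCYLD cells, 0.029 in siCtrl cells and 0.51 for the interaction. Median centring gave TGFB3 0.021 and TGFBR1 0.058 across both siRNAs and ENG 0.086 in siCtrl cells. Quantile normalization gave TGFB3 0.026 across both siRNAs and TGFBR1 -0.0030 in siCtrl cells. For the knockdown TGFB3 was 0.061 in the additive model, and without both arrays with conflicting labels TGFB3 was 0.076, TGFBR2 0.21 and TGFBR3 -0.23. That last fit gave TGFB3 0.13 and TGFBR1 0.021 for the inhibitor across both siRNAs.

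With each array left out, the knockdown ranged over -0.24 to 0.33 for TGFBR3 and -0.47 to 0.10 for TGFB3. The inhibitor across both siRNAs ranged over -0.42 to 0.32 for TGFB3, -0.048 to 0.031 for TGFBR1 and -0.090 to 0.34 for LTBP2. The ends of the TGFB3 and LTBP2 ranges come from leaving out 1 of the inhibitor arrays, which leaves the difference of a single siRNA and no estimate across both. In siCYLD cells it ranged over -0.14 to 0.046 for TGFBR1, -0.11 to 0.20 for LTBP1 and -0.11 to 0.46 for TGFBR3, and in siCtrl cells over -0.073 to 0.27 for TGFBR2, -0.16 to 0.13 for ENG and -0.0038 to 0.042 for TGFBR1. The interaction ranged over -0.19 to 0.11 for LTBP1, -0.16 to 0.027 for TGFBR1 and -0.41 to 0.16 for TGFBR3. The cause of these changes was not tested.

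Over all genes the knockdown called 2757 genes as reported, 1219 without the trend, 963 in the additive model without both arrays with conflicting labels (2787 in that model with all 6 arrays) and 0 by source name (limma, 104 at unadjusted p below 0.05). The inhibitor across both siRNAs called 2586, against 1087 without the trend, 1257 without those arrays, 1710.0 without siCtrl replicate 1, 1539 without siCYLD replicate 1 and 1654 without siCYLD replicate 2. Without the siCYLD inhibitor array the difference is that of siCtrl cells alone, with 1265 called. Across both siRNAs 1445 higher and 1141 lower became 1705 and 688 with median centring. In siCYLD cells it called 2900.0, against 1819 without the filter and 1055 without the trend. In siCtrl cells it called 1211, against 478 without the filter and 35 without the trend, and 649 higher and 562 lower became 641 and 251 with median centring, which moved the median of all genes by 0.10. The interaction called 216, against 33 without the filter, 0 without the trend (limma, 1480.0 at unadjusted p below 0.05), 95 for the mean of kept probe sets, 134 without _x_at and _s_at probe sets and 135 with median centring. Without siCtrl replicate 1 it called 343, without siCYLD replicate 1 458 and without siCYLD replicate 2 362.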
